A study of Mus musculus with 6 samples.

Results

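The S100 genes encode small calcium-binding proteins, and 9 of them are described here in primary mouse embryonic fibroblasts (MEFs) of SARAF-KO and SARAF-WT mice: S100a1, S100a3, S100a4, S100a6, S100a10, S100a11, S100a13, S100a16 and S100b. They were taken by gene symbol from the 18872 genes of the expression table. S100 proteins carry a pair of EF hands, the helix-loop-helix fold that holds a calcium ion, and work mostly as dimers. Calcium opens a hydrophobic surface on the dimer, through which it binds annexins, myosins, enzymes and receptors. Unlike calmodulin, many S100 genes are used in a restricted set of tissues, and S100a4, S100a6, S100a10 and S100a11 are known as genes of fibroblasts and other mesenchymal cells. SARAF is a regulator of store-operated Ca2+ entry, the calcium influx that follows emptying of the endoplasmic reticulum, and the RNA was sequenced to ask how gene expression changes without it.

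The MEFs were grown from the trunks of embryos at embryonic day 14.5, with cells of each embryo on a dish of their own, and the strain background is labelled B6. SARAF-KO mice carried the floxed Saraf allele on both chromosomes (SARAF fl/fl) together with a Cre recombinase driven by the PGK promoter, which is active throughout the body and removes the third Saraf exon. SARAF-WT mice were littermates that also carried SARAF fl/fl but no Cre. Each genotype gave 3 libraries with no treatment, the labels do not say which embryo each came from, and p-values therefore measure only the spread between these libraries, which may be technical. The 6 libraries held 24595137 to 37979662 counted reads.

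Saraf itself, on chromosome 8 of GRCm38 from 34154575 to 34170821, had normalized counts of 4631, 4476 and 4384 in the libraries labelled SARAF-KO, against 3268, 3409 and 3306 in those labelled SARAF-WT. The targeted gene was therefore higher under the KO label, by 0.43 log2 units (standard error, SE, 0.03, limma adjusted p = 4.2e-12). The count covers every exon, so RNA that lacks the third exon is counted with the rest, and the table cannot show that exon alone. Since Saraf ran against the labels, every direction is given by the label, KO label meaning the libraries labelled SARAF-KO and WT label those labelled SARAF-WT. Of 11 fibroblast genes, all 11 were tested, and 8 were called lower and 2 called higher under the KO label by limma (adjusted p under 0.05), against 28.0% called lower and 28.2% called higher among all genes tested. Their summed normalized counts were 349434 to 355724 under the KO label and 426234 to 432237 under the WT label.

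Because S100a1 and S100a13 both fell and S100a4 rose by the most, the sequences around their starts are shown here with that of S100a11, the most abundant member. RefSeq on GRCm38.p6 gave windows of 300 bases around a start, most of them before it, for 8 of the 9 members, and none for S100a10 in the table used. S100a1 and S100a13 lie head to head, so that a single window of the plus strand (chr3:90514185-90514484) holds both starts, and the capitals mark the 104 bases between them. In the S100a4 window (chr3:90603520-90603819, plus strand) the capitals mark a match to the TATA box letters TATAAA. In the S100a11 window (chr3:93520246-93520545, plus strand) they mark matches to the AP-1 letters TGANTCA and the GC box letters GGGCGG.
S100a1 and S100a13: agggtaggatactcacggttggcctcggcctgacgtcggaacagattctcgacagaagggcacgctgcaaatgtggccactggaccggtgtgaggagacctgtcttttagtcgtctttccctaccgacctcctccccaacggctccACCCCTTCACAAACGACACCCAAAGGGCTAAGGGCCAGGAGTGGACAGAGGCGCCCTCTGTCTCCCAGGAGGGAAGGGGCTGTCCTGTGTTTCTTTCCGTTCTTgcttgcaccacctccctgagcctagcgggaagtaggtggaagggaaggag
S100a4: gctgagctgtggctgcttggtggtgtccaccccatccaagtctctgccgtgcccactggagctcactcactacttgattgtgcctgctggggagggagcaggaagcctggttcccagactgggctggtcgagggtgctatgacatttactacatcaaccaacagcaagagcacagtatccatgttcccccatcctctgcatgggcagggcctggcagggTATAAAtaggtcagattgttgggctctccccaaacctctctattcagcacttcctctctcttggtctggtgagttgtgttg
S100a11: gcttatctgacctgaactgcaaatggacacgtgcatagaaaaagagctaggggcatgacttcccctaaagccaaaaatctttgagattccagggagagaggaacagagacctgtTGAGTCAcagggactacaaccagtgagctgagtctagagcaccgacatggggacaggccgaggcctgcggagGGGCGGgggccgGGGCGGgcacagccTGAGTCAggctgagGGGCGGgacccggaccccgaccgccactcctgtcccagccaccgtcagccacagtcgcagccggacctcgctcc
The TATAAA match of S100a4 began 31 bases before the start. The S100a11 window held 2 AP-1 matches, 136 and 38 bases before the start, and 3 GC box matches, 64, 52 and 24 bases before it, with no overlap between matches. With both strands searched, TATAAA was in 13.6% of 32851 promoter windows of the same length, TGANTCA in 7.81%, GGGCGG in 35.7%, the NFAT core GGAAA in 61.3% and the TEAD letters GGAATG in 14.7%. GGAAA matched in windows of S100a1, S100a6, S100a13 and S100a16, the TATA, GC box and TEAD letters matched in windows of S100a3, the AP-1 and GC box letters matched in a window of S100a16, and the S100b window matched none of the 5. These matches describe the letters of the windows and were not tested against the RNA values.

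All 9 genes passed the minimum mean of 10 normalized counts and all 9 were called by limma (adjusted p under 0.05), with 5 higher and 4 lower under the KO label. S100a4, S100a3, S100a10, S100a6 and S100a11 were the 5 that rose, and S100b, S100a1, S100a16 and S100a13 the 4 that fell. Calls were common in these libraries: 56.2% of the 13986 genes tested were called, 28.2% higher and 28.0% lower. The groups did not overlap in any of the 9 genes, which was also so for 61.4% of all genes tested. The sizes of the differences were larger than those of most genes, with a median absolute log2 change of 0.73 over the 9 genes against 0.16 over all genes tested. Their median signed log2 change was 0.25, against −0.001 over all genes tested. In bulk RNA, fewer cells that use a gene and less RNA per cell cannot be told apart. An exact permutation test of a single gene over 3 against 3 libraries cannot go below a two-sided p of 0.1, and all 9 genes reached that value.

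**Figure D1:**
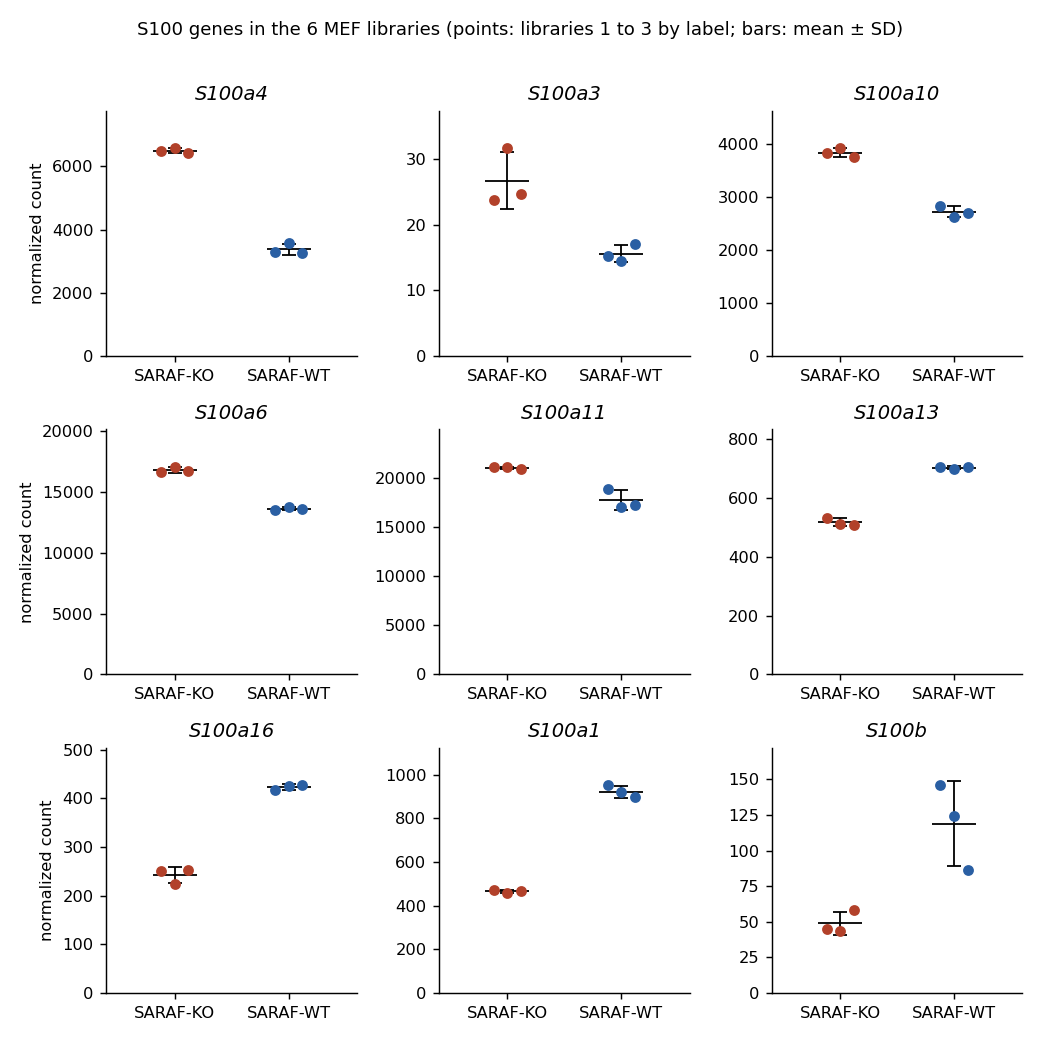
Normalized counts of the 9 S100 genes in the 6 MEF libraries, one panel per gene, with libraries labelled SARAF-KO on the left and SARAF-WT on the right of each panel. Points are libraries 1 to 3, bars are the mean ± SD, and each vertical axis starts at 0; in every panel the points of the groups are apart, with the first 5 panels, S100a4 to S100a11, higher under the KO label and the last 4 lower.

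S100a4, also known as metastasin or fibroblast-specific protein, binds non-muscle myosin heavy chains and promotes cell motility. It had 6488, 6572 and 6422 normalized counts in libraries labelled SARAF-KO, against 3291, 3579 and 3255 in those labelled SARAF-WT. The 3 libraries under the KO label lay close together and far above the other 3, at 6494 ± 75.2 under the KO label and 3375 ± 178 under the WT label (SD, n = 3 each). The log2 change was 0.95 (SE 0.03, 95% interval 0.88 to 1.01, limma adjusted p = 3.5e-18), or 1.92-fold. S100a4 lies on chromosome 3 from 90603771 to 90606045. In GENCODE M21, 302 of its 584 exon bases are shared with Gm42674, an annotated gene on the same strand. Gm42674 is not among the genes of the expression table, whose reads were counted on an Ensembl annotation. Whether reads over the shared bases were dropped is therefore not known.

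S100a10, or p11, is the partner of annexin A2 in a complex at the inner face of the plasma membrane and is unusual in having lost the ability to bind calcium. Its normalized counts were 3844, 3925 and 3754 in the libraries labelled SARAF-KO, against 2834, 2630 and 2709 in those labelled SARAF-WT. The highest library under the WT label stayed well under the lowest under the KO label. The log2 change was 0.50 (SE 0.03, limma adjusted p = 1.4e-12). Annexin A2 (Anxa2) rose by nearly the same amount, with 20256, 20741 and 20516 normalized counts in libraries labelled SARAF-KO, against 15601, 14463 and 14137 in those labelled SARAF-WT (log2 change 0.48, SE 0.03, limma adjusted p = 4.9e-13). The ratio of S100a10 to Anxa2 normalized counts was 0.190, 0.189 and 0.183 under the KO label and 0.182, 0.182 and 0.192 under the WT label. These ratios overlapped between the groups, and the difference between them was not tested.

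S100a6 (calcyclin) and S100a11 (calgizzarin) were the most abundant members and changed the least among those that rose. S100a6, which binds the ubiquitin ligase component Cacybp and annexin A11, had 16614, 17045 and 16725 normalized counts under the KO label, against 13477, 13765 and 13580 under the WT label. Each group spanned a narrow range, and the log2 change was 0.30 (SE 0.02, limma adjusted p = 4.9e-11). S100a11, which binds annexin A1 and takes part in membrane repair and keratinocyte growth control, had 21019, 21088 and 20850 normalized counts under the KO label, against 18831, 17055 and 17250 under the WT label. Library 1 labelled SARAF-WT was higher than the other 2 of its group and still under all 3 labelled SARAF-KO. The log2 change of S100a11 was 0.25 (SE 0.03, limma adjusted p = 9.9e-08). A processed pseudogene of S100a11 is annotated on chromosome 12, so its reads are uncertain to the extent that they map to both.

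S100a3, a zinc-binding member known from the hair cuticle, was barely above the minimum. It had 23.8, 31.7 and 24.6 normalized counts in libraries labelled SARAF-KO, against 15.2, 14.5 and 17.1 in those labelled SARAF-WT. Library 2 under the KO label was the highest of the 6, and the groups did not overlap. The log2 change was 0.73 with a wide 95% interval of 0.21 to 1.25 (SE 0.25, limma adjusted p = 0.017). The call was lost without SARAF-KO replicate 2 (log2 change 0.61, limma adjusted p = 0.099) and with DESeq2 on the recovered reads (adjusted p = 0.098). The S100a3 gene model runs for 42125 bases across S100a2 up to the start of S100a4, and shares exon bases with Gm42674 as well.

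S100b, best known from glia and also used by Schwann cells, cartilage, fat and pigment cells, showed the largest log2 change of the 9 genes. It had 45.0, 43.7 and 58.2 normalized counts in libraries labelled SARAF-KO, against 146, 124 and 86.7 in those labelled SARAF-WT. The libraries under the WT label were spread out, and library 3 of that group came closest to the KO label. The log2 change was −1.24 (SE 0.17, 95% interval −1.59 to −0.89, limma adjusted p = 9.1e-07), and S100b was the only member (1 of 9) to change by at least 1. It lies on chromosome 10 from 76253853 to 76261159, apart from the others. Of 8 genes of Schwann and neural crest cells, 5 were tested, of which 2 were called higher and 1 lower (background 28.2% and 28.0%), and their summed normalized counts were 1047 to 1074 under the KO label and 1371 to 1496 under the WT label. The lower sum came from Mbp, a myelin protein gene, at 798 ± 19.3 normalized counts under the KO label and 1296 ± 46.0 under the WT label (SD, n = 3 each, log2 change −0.70, limma adjusted p = 7.2e-13). Ngfr, the low-affinity neurotrophin receptor, was higher, at 118 ± 9.37 normalized counts under the KO label and 11.4 ± 3.93 under the WT label (SD, n = 3 each, log2 change 3.31, limma adjusted p = 2.2e-12). Cdh19, a cadherin of Schwann cell precursors, was also higher, at 21.2, 34.2 and 24.6 normalized counts under the KO label against 1.01, 2.07 and 0 under the WT label (log2 change 3.89, limma adjusted p = 1.5e-07). Cdh19 passed the minimum only through the libraries labelled SARAF-KO, so its direction among the called genes was set by the minimum. The defining marker Sox10 was at 0 in all 3 libraries under the KO label and at 1.21 ± 1.32 normalized counts under the WT label (SD, n = 3). Summed counts of cartilage genes were 625.5 to 719.7 under the KO label and 932.9 to 982.5 under the WT label, with 2 of 6 genes tested and both called lower, and Col2a1, Comp and Matn1 under the minimum. Summed counts of melanocyte genes were 414.7 to 426.9 under the KO label and 426.4 to 462.3 under the WT label, with 1 of 4 tested genes called lower and none called higher. Those of adipocyte genes were 1189 to 1421 under the KO label and 1188 to 1240 under the WT label, with Adipoq, Plin1 and Cidec under the minimum. Of the 2 tested, Fabp4 was called higher, at 1283 ± 119 normalized counts under the KO label and 1100 ± 26.5 under the WT label, most of the sum. Pparg was called lower, at 29.25 ± 2.52 normalized counts under the KO label and 109.5 ± 1.47 under the WT label (SD, n = 3 each, log2 change −1.87, limma adjusted p = 2.0e-10). The part of these cell types in the change of S100b was not tested.

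S100a1, known from heart muscle where it binds the ryanodine receptor and the calcium pump SERCA2, had 470, 459 and 469 normalized counts in libraries labelled SARAF-KO, against 952, 919 and 897 in those labelled SARAF-WT. All 3 libraries under the KO label were lower than the lowest of the WT label by a wide margin. The log2 change was −0.98 (SE 0.05, 95% interval −1.09 to −0.88, limma adjusted p = 1.7e-14). Summed counts of skeletal muscle markers were 42.5 to 58.2 under the KO label and 48.6 to 58.1 under the WT label, with Myog, Acta1 and Ckm under the minimum. Of 2 tested genes, 1 was called lower (background 28.0%) and 0 higher. This was Tnnt1, at 7.71 ± 1.48 normalized counts under the KO label and 14.7 ± 1.73 under the WT label (SD, n = 3 each, limma adjusted p = 0.033). Tnnt1 passed the minimum only through the libraries labelled SARAF-WT, so its direction was set by the minimum. The part of muscle cells in the change of S100a1 was not tested. S100a16, a widely expressed member, had 251, 224 and 252 normalized counts under the KO label, against 417, 426 and 427 under the WT label. The groups were well apart, with a log2 difference of −0.81 (SE 0.07, limma adjusted p = 7.5e-10). S100a13, which takes part in the release of FGF1 and IL-1α from stressed cells by a route that bypasses the Golgi, had 533, 511 and 508 normalized counts under the KO label, against 704, 697 and 705 under the WT label. S100a13 was the mildest of the 4 that fell, with a log2 difference of −0.44 (SE 0.05, limma adjusted p = 8.2e-08).

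**Figure D2:**
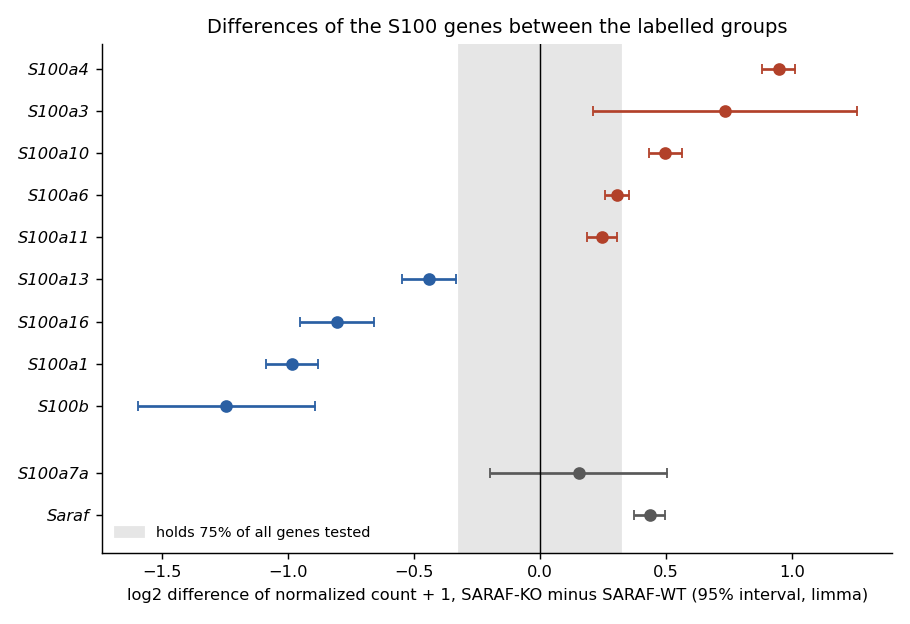
Log2 difference of the normalized count plus 1, libraries labelled SARAF-KO minus those labelled SARAF-WT, with 95% intervals from limma, for the 9 S100 genes and, in grey, S100a7a and Saraf. The shaded band holds the 75% of all genes tested with an absolute log2 change up to 0.32; S100a4, S100a3, S100a10, S100b, S100a1, S100a16 and S100a13 have their points outside it, and S100a6 and S100a11 inside it.

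The other S100 genes gave little RNA. The table holds 7 more of them, of which only S100a7a, a psoriasin-related gene of skin, reached the minimum, with 48.4, 48.0 and 48.3 normalized counts under the KO label, against 41.5, 42.5 and 46.0 under the WT label. Although its groups did not overlap, its log2 change of 0.15 was not called (SE 0.17, limma adjusted p = 0.47). Its unadjusted p from limma was 0.38, and its adjusted p was 0.45 with edgeR and 0.69 with DESeq2 on the recovered reads. Both called 0 of the 7 genes, but all except S100a7a held few reads, so this says little about those. S100a5, known from olfactory neurons, had 5.95, 7.71 and 2.96 normalized counts under the KO label, against 3.04, 1.04 and 0 under the WT label, and was called when no minimum was set (log2 change 1.62, limma adjusted p = 0.012). S100a8, a subunit of calprotectin in neutrophils and macrophages, had 6.80, 2.57 and 13.8 under the KO label, against 8.10, 1.04 and 3.94 under the WT label. Both genes overlapped between the groups. S100a14, S100g (calbindin-D9k, a vitamin D target of the gut), S100a2 and S100z were at or under a mean of 3.22 normalized counts in each group. S100a2 and S100z had 0 reads in all 3 libraries labelled SARAF-WT, which allows up to 3 reads in a library by counting error alone, or 3.04 to 3.94 normalized counts. S100pbp, a nuclear protein that binds S100P in human cells, was slightly lower, at 614 ± 34.9 normalized counts under the KO label and 716 ± 31.9 under the WT label (SD, n = 3 each, log2 change −0.22, limma adjusted p = 0.0012).

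Levels of different genes were compared as normalized counts per kb of annotated exon. S100a11 stood highest, at 41068 ± 239 per kb under the KO label and 34661 ± 1906 per kb under the WT label (SD, n = 3 each). S100a6 followed with 12286 ± 164 per kb under the KO label and 9954 ± 107 per kb under the WT label, and S100a4 with 11120 ± 129 per kb under the KO label and 5779 ± 304 per kb under the WT label. The ratio of S100a4 to S100a6 normalized counts was 0.387 under the KO label and 0.248 under the WT label. S100a10 came next, at 3169 ± 70.6 per kb under the KO label and 2248 ± 85.0 per kb under the WT label. S100a1 and S100a13 changed places, since S100a13 stood above S100a1 under the KO label, at 723 ± 19.0 against 672 ± 8.86 per kb, and S100a1 above S100a13 under the WT label, at 1330 ± 40.1 against 982 ± 6.50 per kb. S100a16 had 150 ± 10.0 per kb under the KO label and 262 ± 3.25 per kb under the WT label, and S100b had 33.0 ± 5.39 per kb under the KO label and 80.2 ± 20.2 per kb under the WT label. S100a3 came last, with 4.72 ± 0.77 per kb under the KO label and 2.76 ± 0.23 per kb under the WT label. Within each group the libraries of neighbours in this order did not overlap. With the length of the longest transcript in place of all exon bases the order was the same in both groups, but S100a6 stood further above S100a4, at 21449 against 13040 per kb under the KO label and 17378 against 6777 per kb under the WT label. The lengths are from GENCODE M21 and the counts from an Ensembl annotation. If reads over the exon bases shared with Gm42674 were dropped, the level of S100a4 is understated. Its place below S100a6 is uncertain to that extent.

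**Figure D3:**
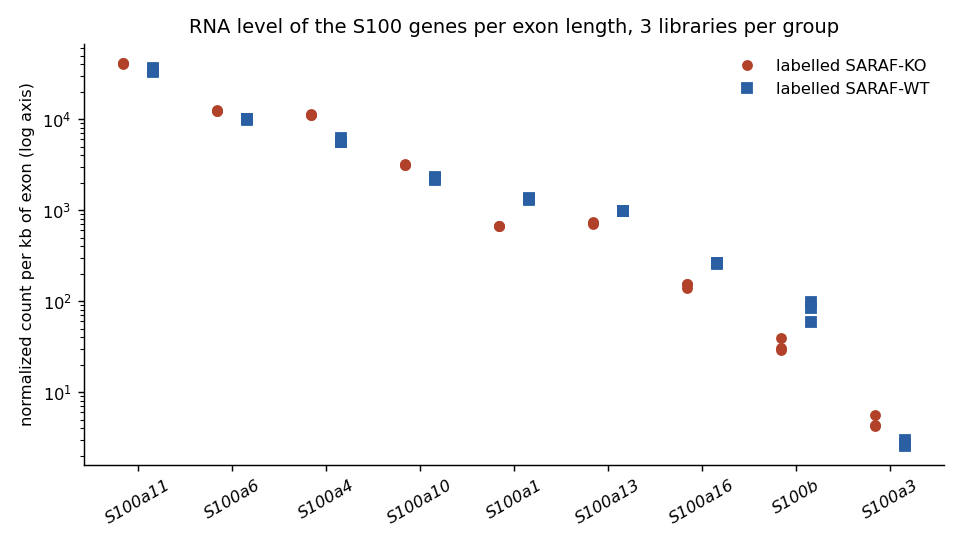
Normalized count per kb of exon, on a log axis, of the 9 S100 genes in 3 libraries labelled SARAF-KO (circles, left) and 3 labelled SARAF-WT (squares, right). Genes are ordered by their level under the WT label, from S100a11 at 34661 per kb to S100a3 at 2.76 per kb; S100a1 lies below S100a13 only among the circles.

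The 9 genes together took 0.153% ± 0.001 of all normalized counts under the KO label and 0.122% ± 0.002 under the WT label (SD, n = 3 each). Most of this was S100a6 and S100a11, which made up 76.5% of the S100 sum under the KO label and 79.1% under the WT label, while S100a4 made up 13.1% under the KO label and 8.53% under the WT label. The ratio of S100a4 to S100a1 normalized counts moved the most of the 5 ratios computed, at 13.8, 14.3 and 13.7 under the KO label against 3.46, 3.89 and 3.63 under the WT label. S100a1 over S100a13 was 0.90 under the KO label and 1.32 under the WT label. S100a11 over annexin A1 (Anxa1) was 3.42 under the KO label and 3.63 under the WT label, with library ranges of 3.40 to 3.43 under the KO label and 3.49 to 3.85 under the WT label.

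In the mouse, 8 of the 9 genes lie on chromosome 3, and there the S100 genes that were called fell into blocks by position. From left to right, S100a1 (90511034 to 90514392, minus strand), S100a13 (90514435 to 90524581) and S100a16 (90537254 to 90543151) were lower under the KO label. S100a3 (90560578 to 90602702), S100a4 and S100a6 (90612882 to 90624181), the next called genes, were higher. S100a11 (93520488 to 93526287) and S100a10 (93555080 to 93564643), 2896 kb further on, were also higher. S100a1 and S100a13 are 42 bases apart in GENCODE and are read in opposite directions, and S100a16 and S100a3, on either side of the change in sign, are 17426 bases apart.

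The 2896 kb between S100a6 and S100a11 hold the epidermal differentiation complex, whose genes build the cornified envelope of skin. The table has 29 other genes inside the S100 span, of which 12 were tested. All 12 were higher under the KO label (background 28.2%), and they were chosen after their values were seen. Sprr2a3, Sprr2e, Sprr2f and Crct1 passed the minimum only through the libraries labelled SARAF-KO, so their direction was set by the minimum. Their means under the WT label were 6.71, 4.94, 2.6 and 6.28 normalized counts. Sprr1a, a small proline-rich protein cross-linked into the envelope, had 9968 ± 266 normalized counts under the KO label and 3806 ± 366 under the WT label (SD, n = 3 each), a log2 difference of 1.39 (SE 0.04, limma adjusted p = 3.3e-19). Ivl, which encodes involucrin, had 267, 259 and 252 normalized counts under the KO label, against 43.6, 15.6 and 35.4 under the WT label, a log2 difference of 3.12 (SE 0.22, limma adjusted p = 8.3e-12). Sprr2h, at 131 ± 15.6 normalized counts under the KO label and 18.0 ± 2.00 under the WT label, had a log2 difference of 2.80, and the other tested Sprr2 genes, close paralogs that may share reads, ranged from 1.31 for Sprr2g to 2.51 for Sprr2f. Tchh, trichohyalin of hair follicles, a large protein that begins with an S100-like EF-hand domain, had 978 ± 25.9 normalized counts under the KO label and 714 ± 26.2 under the WT label (log2 change 0.45, limma adjusted p = 9.3e-09). Lor, which encodes loricrin, was barely called, with a log2 difference of 0.44 (limma adjusted p = 0.043), and lost the call under 8 alternatives, among them without SARAF-WT replicate 3 (log2 change 0.28, limma adjusted p = 0.2). The epithelial markers Krt5, Krt8, Epcam and Cdh1 were under the minimum in these MEFs, at most 9.67 normalized counts on average in a group. Krt18 was lower under the KO label, at 25.5 ± 3.87 normalized counts under the KO label and 80.6 ± 10.5 under the WT label (SD, n = 3 each). Summed counts of the epithelial markers were 30.6 to 42.8 under the KO label and 81.0 to 104.7 under the WT label, and the part of epithelial cells in the rise of the epidermal genes was not tested.

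Left of S100a1, the nearest tested neighbours Chtop, Snapin, Ilf2 and Ints3 had log2 changes of 0.11, −0.02, 0.12 and 0.07, of which that of Snapin was not called (limma adjusted p = 0.68) and that of Ints3 was lost under 6 alternatives. Npr1, a natriuretic peptide receptor among them, fell like S100a1, at 83.6 ± 13.5 normalized counts under the KO label and 190 ± 13.6 under the WT label (SD, n = 3 each, log2 change −1.18, limma adjusted p = 9.8e-09). Right of S100a10, Them4 and Snx27 were not called, and Tdrkh and Mrpl9 rose by 0.49 and 0.21 on the log2 scale. These neighbours were likewise chosen after the S100 values were known.

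**Figure D4:**
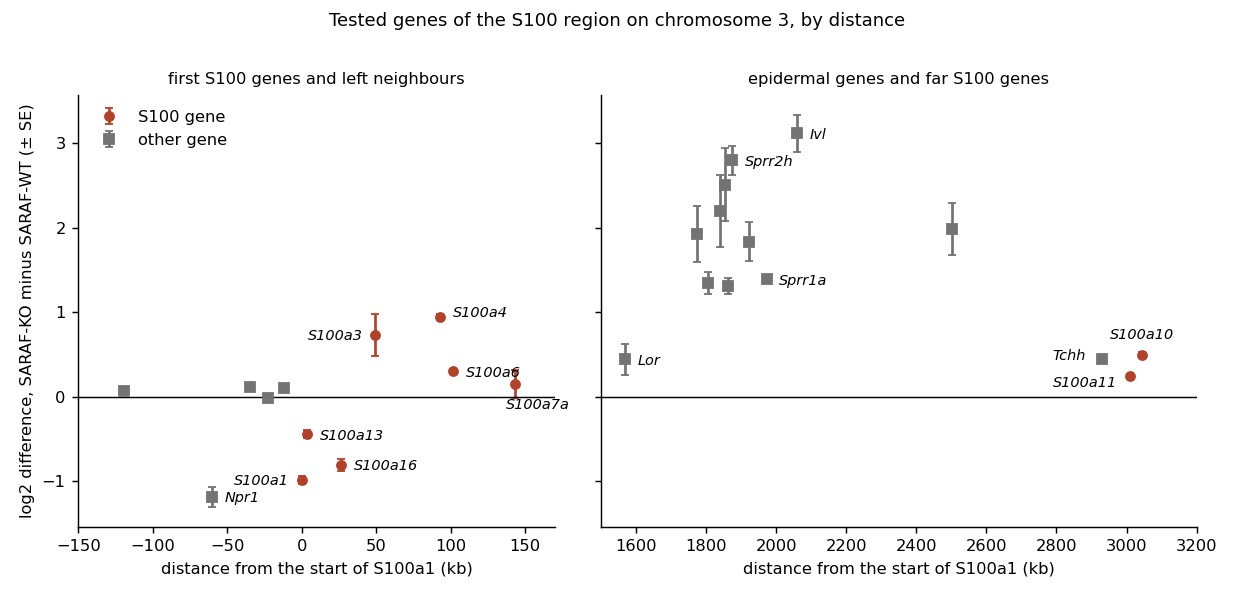
Log2 difference (libraries labelled SARAF-KO minus SARAF-WT, ± SE) of the tested genes of the S100 region on chromosome 3 against the distance in kb from the start of S100a1, in panels for the near S100 genes with their left neighbours and for the epidermal genes with the far S100 genes. Circles are S100 genes and squares are other genes; S100a1, S100a13 and S100a16 lie below 0, and every circle and square to the right of them lies above 0, up to Ivl at 3.12.

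Proteins that S100 dimers bind or signal through were followed as a list of 40 genes, of which 39 are in the table and 36 were tested. Of these, 15 were higher and 12 lower under the KO label (27 of 36 called against 56.2% of all genes tested), with a median log2 change of 0.03. Among the annexins, Anxa1 rose by 0.33 with Anxa2, while Anxa11, a partner of S100a6, fell by 0.44 and Anxa6 fell by 0.63 (limma adjusted p = 5.0e-11, 3.6e-10 and 3.8e-15). Cacybp, the S100a6-binding protein, rose by 0.29 (limma adjusted p = 1.9e-08). Ahnak, the giant scaffold that S100a10 and annexin A2 hold at the membrane, had 6429 ± 320 normalized counts under the KO label and 6160 ± 121 under the WT label and was not called (SD, n = 3 each, limma adjusted p = 0.097). It was called without SARAF-KO replicate 1 (log2 change 0.10, limma adjusted p = 0.0076).

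The partners of S100a4 moved in both directions. Myh9, the heavy chain of non-muscle myosin IIA, whose filaments S100a4 takes apart, fell by 0.15 on the log2 scale (limma adjusted p = 2.2e-05), and Myh10, that of myosin IIB, fell by 0.56 (limma adjusted p = 6.5e-15). Ppfibp1, liprin beta 1, rose by 0.43 (limma adjusted p = 5.8e-13). Plau, the urokinase plasminogen activator, had 684, 756 and 774 normalized counts under the KO label, against 1271, 1278 and 1221 under the WT label, a log2 difference of −0.77 (limma adjusted p = 8.7e-13). The plasminogen system is one through which extracellular S100a10 and S100a4 act. Alcam, a cell adhesion molecule, had the largest fall of the list, at 506 ± 26.8 normalized counts under the KO label and 1004 ± 64.4 under the WT label (SD, n = 3 each, log2 change −0.99, limma adjusted p = 1.0e-13).

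Among the cargo of S100a13, Il1a, the cytokine interleukin-1α, had the largest rise of the list. It had 49.3, 46.2 and 59.2 normalized counts in libraries labelled SARAF-KO, against 9.12, 6.22 and 9.19 in those labelled SARAF-WT. Il1a passed the minimum only through the libraries labelled SARAF-KO, so its direction was set by the minimum. All 3 libraries under the KO label were far above the other 3, while S100a13 was lower in the same libraries, and the log2 change of Il1a was 2.53 (SE 0.26, limma adjusted p = 7.9e-09). Macrophages also make Il1a, and summed counts of macrophage markers were 505.6 to 526.5 under the KO label and 439.9 to 462.3 under the WT label. Of 3 tested genes, 2 were called higher (background 28.2%), and Ptprc, Fcgr3, Lyz2 and Aif1 were under the minimum. Cd53 was called higher, at 108.8 ± 14.05 normalized counts under the KO label and 39.6 ± 6.08 under the WT label (limma adjusted p = 3.0e-08). So was Csf1r, at 31.2 ± 6.49 under the KO label and 18.0 ± 6.02 under the WT label (limma adjusted p = 0.014). Cd68, the marker with the most counts, was not called, at 363 ± 10.2 normalized counts under the KO label and 381 ± 10.4 under the WT label (SD, n = 3 each, limma adjusted p = 0.36). The part of macrophages in the change of Il1a was not tested. Fgf1, the other cargo, was under the minimum, at 3.40, 1.71 and 3.94 normalized counts under the KO label against 7.09, 12.4 and 5.25 under the WT label. Syt1, synaptotagmin 1, which is part of the same release complex, had 46.7, 75.4 and 50.3 normalized counts under the KO label, against 27.4, 34.2 and 44.6 under the WT label. Its log2 change of 0.68 (limma adjusted p = 0.0076) rested on SARAF-KO replicate 2, without which it was 0.47 (limma adjusted p = 0.097). Ager, the receptor RAGE that extracellular S100b and other S100 proteins bind, was at 66.5 ± 7.33 normalized counts under the KO label and 85.0 ± 12.6 under the WT label (SD, n = 3 each) and was not called (log2 change −0.34, limma adjusted p = 0.052), but was called under 4 alternatives, with adjusted p from 0.014 to 0.05.

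**Figure D5:**
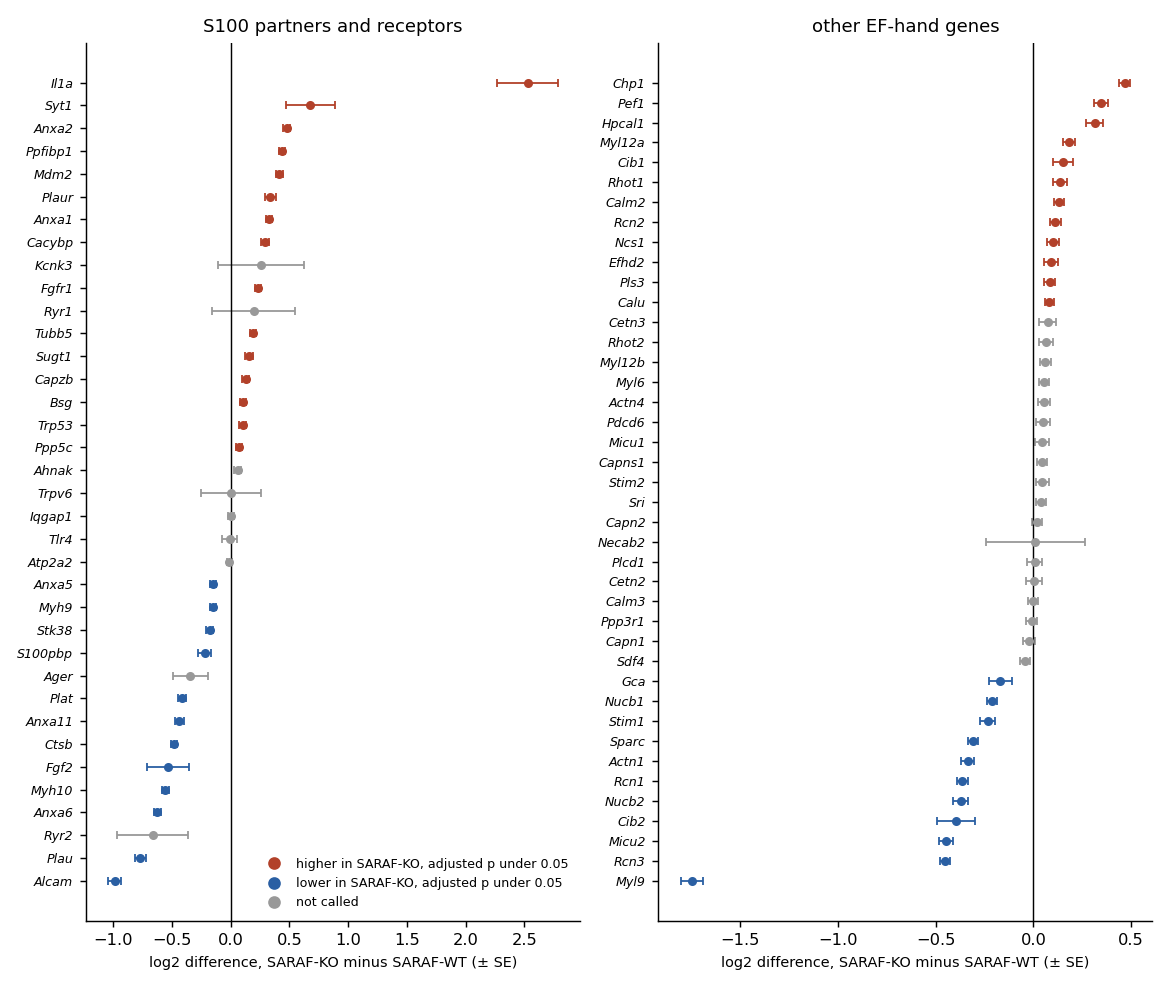
Log2 difference (libraries labelled SARAF-KO minus SARAF-WT, ± SE) of the 36 tested S100 partners and receptors, left, and of most of the 42 tested other EF-hand genes, right, each sorted by its value. Red points were called higher, blue points called lower and grey points not called; Il1a at 2.53 and Alcam at −0.99 are the ends of the left panel, and Chp1 at 0.47 and Myl9 at −1.75 those of the right.

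Other EF-hand proteins were listed for 53 genes, of which 51 are in the table and 42 were tested, and 12 were higher and 11 lower under the KO label (23 of 42 called, against 56.2% of all genes tested), with a median log2 change of 0.04. The calmodulin gene Calm2 rose by 0.13 on the log2 scale (limma adjusted p = 6.0e-05), and Calm3 was not called (limma adjusted p = 0.99). Chp1, a calcineurin-like cofactor of sodium-proton exchangers, rose by 0.47, Pef1, peflin, by 0.34, Hpcal1, a visinin-like calcium sensor, by 0.31 and Myl12a, a non-muscle myosin regulatory light chain, by 0.18 on the log2 scale (limma adjusted p at most 1.4e-05). The 4 largest falls were in Myl9, the regulatory light chain of smooth muscle myosin, Rcn3, a reticulocalbin of the endoplasmic reticulum, Micu2, a gatekeeper of the mitochondrial calcium uniporter, and Cib2, a calcium and integrin-binding protein. Myl9 had 996, 1088 and 1081 normalized counts under the KO label, against 4089, 3402 and 3184 under the WT label. With a log2 difference of −1.75 (SE 0.06, limma adjusted p = 2.4e-18), Myl9 changed by more than any of the 9 S100 genes, while those of Rcn3, Micu2 and Cib2 were −0.45, −0.45 and −0.40.

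For the 3 S100 genes with the largest absolute log2 changes, the genes with the most similar profile were sought among 13985 tested genes, as the root-mean-square distance of log2 values centred on the WT mean over the 6 libraries. For S100b these were Myh11, Acta2 and Gpr179, at distances of 0.16, 0.19 and 0.19 log2 units. Myh11 and Acta2 encode the myosin heavy chain and the actin of smooth muscle, and Acta2 had 3077 ± 181 normalized counts under the KO label against 8174 ± 1274 under the WT label (SD, n = 3 each). Myh11 and Gpr179 lay near the minimum. Myh11 had 11.4 ± 2.2 normalized counts under the KO label against 25.35 ± 4.9 under the WT label, and Gpr179 had 7.27 ± 2.2 against 17.9 ± 6.5. Gpr179 passed the minimum only through the libraries labelled SARAF-WT, so its direction, which it shares with S100b, was set by the minimum. For S100a1 they were Bmp4, a bone morphogenetic protein, Rdh10, a retinol dehydrogenase, and Fhl1, a LIM-domain protein of muscle, all within 0.04 log2 units. For S100a4 they were Osbpl3, an oxysterol-binding protein, Ccnd2, cyclin D2, and the homeobox gene Hoxb13, at 0.04 to 0.05 log2 units. The distances are a description of 6 libraries in 2 groups, in which a shared difference between the groups sets most of the likeness.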

How the data were processed

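The authors mapped single-end reads of TruSeq libraries to GRCm38 with TopHat2 2.0.10, counted them per gene of an Ensembl annotation with HTSeq and scaled the counts with the size factors of DESeq2. The deposited values used here are these normalized counts, a signal per gene and library. The authors' comparison columns (fold change, p-values) were not used. Divided by the smallest value above 0 of its library, 100% of values came out whole (tolerance 1e-06), which gave back the counted reads. The strand setting of the counting is not given in the sources used here.

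Genes with a mean of at least 10 were tested with limma 3.58.1 (R 4.3.3, trended variance, two-sided) on log2 of the normalized count plus 1, which understates changes of genes with few counts, with Benjamini-Hochberg adjustment over all 13986 genes tested and a threshold of 0.05. Values beside a gene are means and SDs of 3 libraries. Positions and exon lengths are from GENCODE M21 on GRCm38. Pairs of libraries of a group differed by more than sampling noise (chi-square per degree of freedom 1.53 to 3.99 within groups, 39.3 to 47.2 between them), so none was treated as a copy. The fit was tested on simulated counts.

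The 9 genes and the lists were chosen with earlier results of these data known. Named beside them were the 4 largest called changes in each direction of the partner and EF-hand lists, 8 direct partners (Anxa2, Anxa1, Anxa11, Ahnak, Cacybp, Myh9, Ager and Fgf1) and the 3 nearest profiles of 3 members. Genes of the chromosome 3 region, Calm2, Calm3, Krt18, Sox10, Mbp, Ngfr, Cdh19, Cd53, Csf1r, Cd68, Tnnt1, Fabp4 and Pparg were named after their values were seen. Gene descriptions in the table do not always match the symbols, so genes were taken by symbol. A comparison of the protein sequences was not run here. The 15 alternatives were TMM factors, edgeR 4.0.16, DESeq2 1.42.0 and limma-voom on the recovered reads, no minimum, a minimum of 50, added counts of 0.5 and 5, a replicate block and leaving out each library.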

Additional observations from a re-analysis of the deposited data

How the results depend on the processing

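Of 134 log2 changes of the 9 S100 genes under the 15 alternatives, 132 kept their direction and their side of the threshold, 2 lost the call (both S100a3, which was not tested with a minimum mean of 50) and 0 reversed. The number of the 9 genes called was 8 to 9, with the 4 that fell called under every alternative. Without a minimum, 1 of the other S100 genes was called (S100a5), against 0 with it, where only S100a7a was tested. With a minimum mean of 50, fewer genes were tested and 6 of the other genes between the S100 genes were called, against 12. Replicate numbers do not pair the libraries, since deviations of same-numbered libraries from their group means correlated at −0.001 to 0.002 over genes, and a replicate block called 9 of the 9 genes and 7801 genes in all, against 7864 without it. Leaving out each library in turn gave 6948 to 7910 calls over all genes and 10 to 12 between the S100 genes. DESeq2 called 6646 genes in all and edgeR 7926. Of 780 values of the other named genes, 760 kept their direction and side, and those of Lor, Ints3, Ager, Ahnak and Syt1 made up the rest. Cd53, Csf1r, Cd68, Tnnt1, Fabp4, Pparg, Sox10 and the nearest profiles were not among these values. Depth limits S100a3 and S100a5, which held few reads. S100b also had a wide interval, and its libraries under the WT label were spread out, with an SD of 25.2% of their mean.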
